A study of Rattus norvegicus with 24 samples.

Results

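Urethral RNA of rats injected with MABsallo-VEGF was compared with that of rats injected with saline at 7d after simulated vaginal delivery (SVD), for each gene whose normalized count averaged 2 or more over the samples of both groups. The 8 samples, 4 in each group, are part of 24 in the series, and 15198 of 32883 genes were tested. All animals were 12-week-old female virgin Sprague-Dawley rats in which SVD was simulated by pudendal nerve crush and vaginal distension, and so the saline controls carried the same injury. Mesoangioblasts (MABs), vessel-associated progenitor cells that can form muscle, were isolated from skeletal muscle of another rat and given into the aorta 1 h after SVD. MABsallo-VEGF had been transduced with a lentivirus in which the SFFV promoter drives VEGF165 together with a truncated CD34. The labels give these samples the genotype VEGF OE, although the overexpression was in the injected cells and not in the animals. Of the 4 MABsallo-VEGF samples, 2 (replicates 6 and 7) carried the word recovery in their labels. The 4 samples of MABsallo, MABs without the VEGF vector that the methods describe as transduced with a vector for eGFP and luciferase, and the samples of 3d are used below only where stated.

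Vascular endothelial growth factor A (VEGF-A) signals mainly through the receptor tyrosine kinases VEGFR1 and VEGFR2 on endothelial cells, and its close relatives VEGF-C and VEGF-D act on lymphatic and blood vessels through VEGFR3 and VEGFR2. It is known for vessel growth and permeability, and it also acts on neurons and macrophages. The female rat urethra is a tube of urothelium and squamous epithelium, smooth muscle and a striated sphincter, with adipose and connective tissue around it, and a bulk sample can hold all of them.

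Most adipocyte and macrophage genes measured were lower after MABsallo-VEGF, and A2ml1 and Atp2a3 led the genes that were higher. A gene was called a DEG where its adjusted p was under 0.05 and its log2 difference exceeded 1 in size, and limma called 0 (0.00%). At an unadjusted p below 0.05, limma gave 1932 genes (12.7% of those tested), of which 1015 were higher (6.68%) and 917 lower (6.03%). With adjusted p below 0.1 there were 9 genes (0.0592%), A2ml1 and Atp2a3 among the higher and Aqp7, Lpl, Cyp4b1, Cd163, Lep, C6 and Vegfd among the lower. The other tools differed on the recovered reads. edgeR called 0 genes, with 2005 (13.2%) at an unadjusted p below 0.05, while DESeq2 called 241 (1.59%), 112 higher (0.737%) and 129 lower (0.849%) and 95 with ashr shrinkage. Fitted on all 24 samples, DESeq2 called 10 higher (0.0658%) and 26 lower (0.171%) and edgeR 0. The samples of both groups did not overlap for 474 genes that were higher (3.12%) and 510 that were lower (3.36%).

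The count depended on 1 sample of each group. Leaving out saline replicate 1, limma called 60 DEGs, 15 higher and 45 lower. Leaving out MABsallo-VEGF replicate 11, it called 106, 69 higher and 37 lower, and 16 genes were called in both. On the first principal component of the 500 most variable genes, which held 28.1% of the variance, the scores were 2.5, -27.2, -35.3 and -24.1 in saline replicates 1, 2, 3 and 5. They were 32.8, 33.8, -6.1 and 23.7 in MABsallo-VEGF replicates 6, 7, 11 and 12. On this component saline replicate 1 and MABsallo-VEGF replicate 11 therefore lay next to each other, between the rest of both groups. On the second component, which held 22% of the variance, they lay far apart, at -2.5 and 43.9. The latter was the highest score of both groups. Fits without either sample are given below because leaving it out raised the limma count most. Calls made without these samples are thus partly built in by that choice and are not separate support. The difference of the group means on the first component was 42.1 (two-sided exact permutation test, p = 0.0571, smallest possible 0.0286). The samples had 5244129 to 6986159 reads in saline and 5415577 to 6288841 in MABsallo-VEGF, and 1 read was worth 2.49 to 3.63 normalized counts. The labels give the replicates as separate samples without naming the animals, and p-values measure the spread between these samples.

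The rat genes Vegfa and Cd34, named for the kinds of protein that the vector encodes, were read first. Vegfa was at 930, 687, 784 and 843 normalized counts in saline replicates 1, 2, 3 and 5, and at 562, 1121, 829 and 772 in MABsallo-VEGF replicates 6, 7, 11 and 12. The groups overlapped, with a log2 difference of -0.02 (SE 0.21, adjusted p = 0.984). Cd34 was counted at 3.38 to 14.9 in saline and 3.15 to 18.6 in MABsallo-VEGF, a few reads per sample in both. The sources used here do not say whether vector-derived transcripts were counted on the rat genes Vegfa and Cd34. These levels are therefore not a reading of the transgene.

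**Figure D1:**
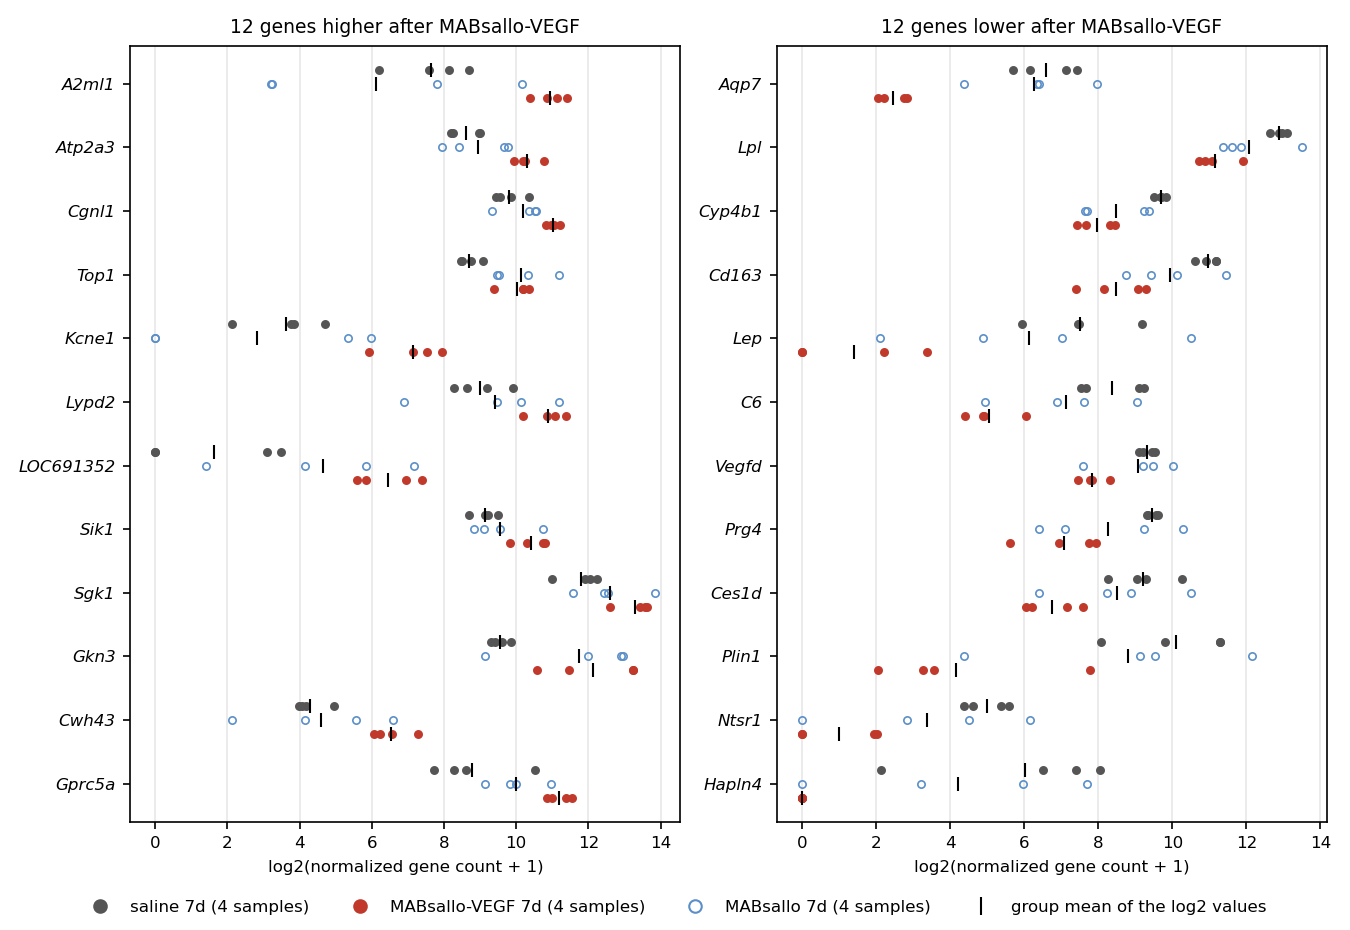
Levels as log2(normalized gene count + 1) of the 24 genes named by rule, with a point for each of the 4 samples of saline, MABsallo and MABsallo-VEGF at 7d and a bar at the mean of the log2 values. For all 24 the MABsallo-VEGF samples lie on one side of the saline samples, as the rule requires. The MABsallo mean lies between the other means for 21, a position that choosing genes with both other groups far apart also favours.

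Adipocyte genes were lower after MABsallo-VEGF. White adipocytes store triglyceride in a droplet coated by perilipin and secrete the hormones leptin, adiponectin and resistin. The promoters of Lep, Plin1 and Retn, which had some of the largest log2 differences among the adipocyte genes, and for contrast that of Jund, a higher gene, are shown as RefSeq holds them for GRCr8, from 250 bases before to 50 after the start. They are Lep at chr4:58626288-58626587 (plus strand), Plin1 at chr1:143086099-143086398 (minus strand), Retn at chr12:6508524-6508823 (plus strand) and Jund at chr16:18769722-18770021 (minus strand). Capitals mark matches, on either strand, to AGGTCA (a motif of nuclear receptors), TTNNGCAA (the C/EBP core) or TGACG (the core of CRE sites).
Lep: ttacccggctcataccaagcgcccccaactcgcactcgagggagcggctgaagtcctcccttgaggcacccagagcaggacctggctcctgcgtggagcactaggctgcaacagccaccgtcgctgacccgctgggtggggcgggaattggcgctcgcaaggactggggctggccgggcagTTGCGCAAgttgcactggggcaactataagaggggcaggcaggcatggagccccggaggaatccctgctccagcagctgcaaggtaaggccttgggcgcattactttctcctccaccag
Plin1: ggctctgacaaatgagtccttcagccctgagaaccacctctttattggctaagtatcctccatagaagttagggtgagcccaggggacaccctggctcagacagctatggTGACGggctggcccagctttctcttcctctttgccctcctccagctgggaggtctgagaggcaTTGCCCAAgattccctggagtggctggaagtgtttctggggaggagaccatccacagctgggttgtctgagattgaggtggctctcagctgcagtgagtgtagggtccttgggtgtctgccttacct
Retn: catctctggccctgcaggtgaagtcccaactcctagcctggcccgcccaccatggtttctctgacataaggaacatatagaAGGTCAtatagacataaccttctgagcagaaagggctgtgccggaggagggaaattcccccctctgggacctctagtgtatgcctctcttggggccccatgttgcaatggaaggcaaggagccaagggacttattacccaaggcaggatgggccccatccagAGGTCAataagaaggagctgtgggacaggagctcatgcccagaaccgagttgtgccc
Jund: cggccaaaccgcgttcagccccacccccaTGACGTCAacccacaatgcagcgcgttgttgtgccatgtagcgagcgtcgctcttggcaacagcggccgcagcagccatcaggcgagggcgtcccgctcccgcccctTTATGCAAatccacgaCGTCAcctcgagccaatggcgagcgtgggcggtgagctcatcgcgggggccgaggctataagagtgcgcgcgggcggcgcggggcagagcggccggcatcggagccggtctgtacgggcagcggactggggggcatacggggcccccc
Lep held TTGCGCAA 69 bases before its start and Plin1 held TTGCCCAA at 77 and TGACG at 140. Retn held AGGTCA at 169 and 7 bases before its start. In Jund, TTATGCAA lay at 114 and TGACG matches at 221, 218 and 98, the first and second of which overlap in TGACGTCA. Of the 33469 promoters of this length, 16.2% held AGGTCA, 10.6% TTNNGCAA and 21.2% TGACG, on either strand. A match says that these letters are present and nothing of binding.

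Lep, the gene of the satiety hormone leptin, was at 60.9, 174, 583 and 179 normalized counts in saline replicates 1, 2, 3 and 5. In MABsallo-VEGF it was at 3.63, 0, 9.31 and 0, no more than 3 reads in any sample. Lep was thus at least 26.1-fold lower, with no overlap (adjusted p = 0.0549). Aqp7, the glycerol channel of adipocytes, was at 50.7, 172, 70.3 and 138 in saline against 3.63, 5.71, 6.21 and 3.15, at least 11.3-fold lower (adjusted p = 0.0549). Its values in MABsallo, 80.5, 19.9, 83.4 and 249, were all above those of MABsallo-VEGF.

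Lpl, lipoprotein lipase, which frees fatty acids from circulating triglyceride, was lower in every MABsallo-VEGF sample than in any saline sample. Its saline values of 6328, 7961, 7525 and 8713 faced 1875, 2136, 3870 and 1686 in MABsallo-VEGF, a log2 difference of -1.75 (SE 0.24, adjusted p = 0.0549). Plin1, perilipin 1, stood further apart in mean and varied far more. It was at 271, 2479, 898 and 2484 in saline and at 10.9, 8.56, 217 and 3.15 in MABsallo-VEGF, a log2 difference of -5.95 (SE 1.09, adjusted p = 0.165). Its lowest saline sample was replicate 1 and its highest MABsallo-VEGF sample replicate 11.

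The same samples were the extremes for other fat genes. Retn, the gene of resistin, was at 243.5, 4217, 683 and 4968 in saline and at 7.26, 14.3, 229.6 and 18.9 in MABsallo-VEGF, a log2 difference of -5.63 (SE 1.11, adjusted p = 0.165), with replicate 11 close below saline replicate 1. Adipoq, the gene of adiponectin, was at 318, 3612, 1845 and 3629 in saline and at 14.5, 2.85, 419 and 18.9, a log2 difference of -5.97 (SE 1.22, adjusted p = 0.174), and the groups overlapped. Cidec, which enlarges lipid droplets, and Pck1, an enzyme of glyceroneogenesis, also overlapped, with log2 differences of -6.21 (SE 1.20) and -5.45 (SE 1.22).

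Of the 22 adipocyte genes tested, 21 were lower and 1 higher. At an unadjusted p below 0.05, 18 were lower (all genes 6.03%) and 0 higher (6.68%), 6 lay apart without overlap, all lower (all genes 3.36%), and DESeq2 called 10, all lower (all genes 0.849%). The median log2 difference was -2.72, or -2.38 with genes at the detection limit put at their bounds, beside a median of 0.01 over all genes tested. The summed level was 29280 to 95280 in saline and 15030 to 32630 in MABsallo-VEGF, with the lowest saline sum in replicate 1 and the highest MABsallo-VEGF sum in replicate 11. In MABsallo the sum ran from 20660 to 134900. Without saline replicate 1, limma called 9 of the 22 genes, all lower (all genes 0.296%), and the median was -3.37. Without MABsallo-VEGF replicate 11 it called 10, all lower (all genes 0.243%), with a median of -3.27. Both samples were the nearest to the other group in this sum, so that stronger calls without them are built in. Fewer adipocytes in a sample and less of these transcripts in each adipocyte cannot be told apart in bulk RNA.

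**Figure D2:**
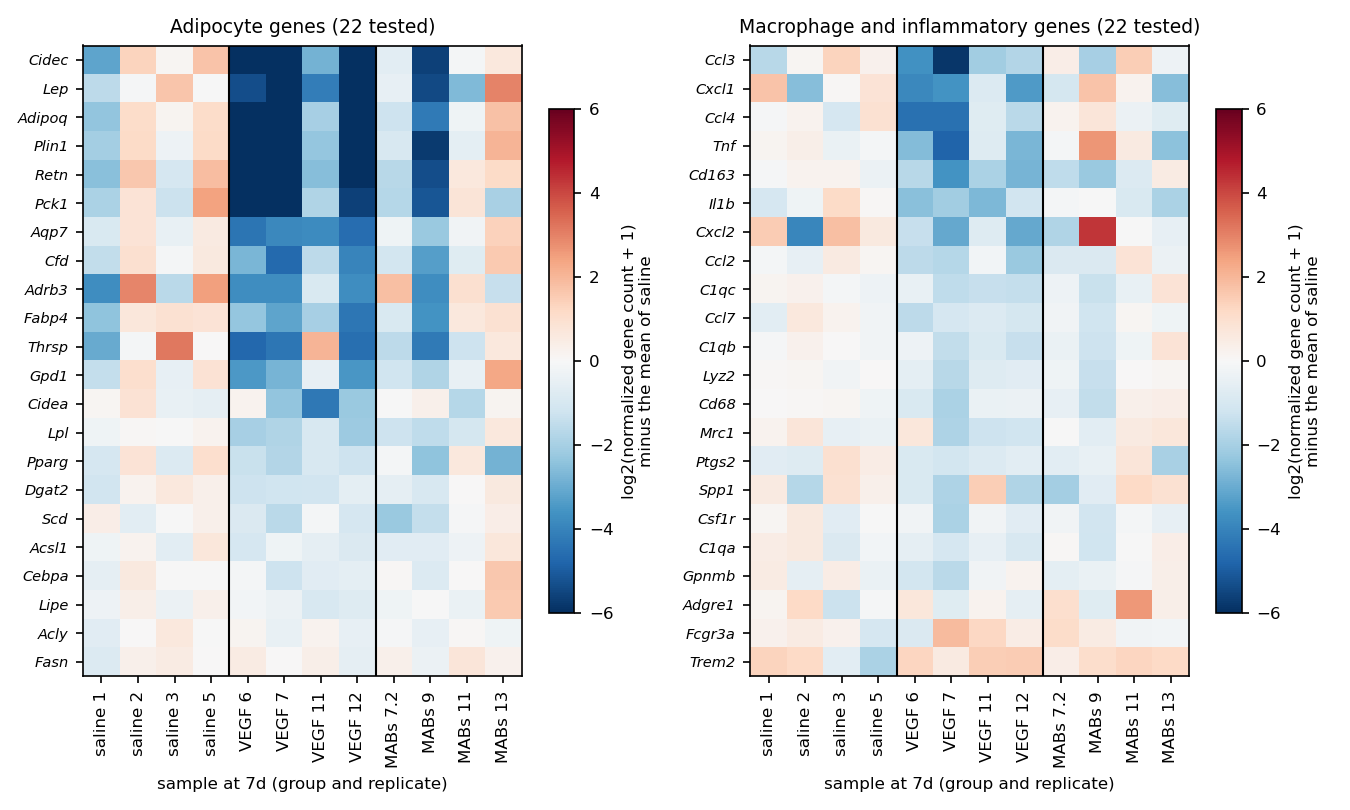
Heat maps of the 22 adipocyte and 22 macrophage and inflammatory genes tested, with genes as rows and the samples of saline, MABsallo-VEGF (VEGF) and MABsallo (MABs) at 7d as columns. Colour gives log2(normalized gene count + 1) minus the mean of saline, blue for lower and red for higher values. In the adipocyte panel MABsallo-VEGF replicate 11 is paler than the other samples of its group and saline replicate 1 is the bluest of saline, with adipocyte sums of 32630 and 29280.

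Macrophage genes were also lower after MABsallo-VEGF, and here saline replicate 1 had the highest sum of its group (44220). Cd163, the haemoglobin scavenger receptor of resident and reparative macrophages, was at 1928, 2300, 2304 and 1579 in saline replicates 1, 2, 3 and 5. In MABsallo-VEGF it was at 628, 168, 534 and 287, about 5.02-fold lower in mean, with a log2 difference of -2.49 (SE 0.36, adjusted p = 0.0549). Every MABsallo-VEGF value was below the lowest saline value.

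The inflammatory cytokine Il1b was at 494, 831, 2207 and 1022 in saline and at 170.5, 231, 149 and 441 in MABsallo-VEGF, a log2 difference of -2.12 (SE 0.44, adjusted p = 0.180). The groups did not overlap, although saline replicate 1 and MABsallo-VEGF replicate 12 were near each other. Ccl3, a macrophage chemokine, was at 16.9 to 141 in saline against 0 to 15.8, a log2 difference of -3.32 (SE 0.94, adjusted p = 0.216). C1qc, a chain of complement C1q, and Lyz2, lysozyme, had log2 differences of -1.19 (SE 0.24) and -0.92 (SE 0.23), without overlap. Tnf, low in all samples, was also apart (-2.73, SE 0.82), whereas Cxcl1, which attracts neutrophils, overlapped (-2.91, SE 0.86).

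Of the 22 macrophage and inflammatory genes tested, 20 were lower and 2 higher, 13 were lower and 0 higher at an unadjusted p below 0.05 (all genes 6.03% and 6.68%), and 9 did not overlap, all lower (all genes 3.36%). DESeq2 called 5, all lower (all genes 0.849%), and the median log2 difference was -0.96. The sums were 35440 to 44220 in saline, 11740 to 25270 in MABsallo-VEGF and 27140 to 47340 in MABsallo. Without saline replicate 1, limma called Cd163 (-2.51, adjusted p = 0.0387) and Il1b (-2.44, adjusted p = 0.0465), where 0.296% of all genes were called lower. Without MABsallo-VEGF replicate 11 it called Cd163 (-2.68, adjusted p = 0.0248) and the chemokine Ccl2 (-1.83, adjusted p = 0.0422), where 0.243% of all genes were called lower. Medians of other leukocyte lists were also below 0. They were -0.91 for 10 neutrophil genes, with 1 lower at an unadjusted p below 0.05, -0.97 for 10 mast cell genes, with 2 lower, and -0.46 for 13 B and T cell genes, with 2 lower (median -0.14 at bounds). MHC class II genes, which antigen-presenting cells express, went the other way, with a median of 0.57 and 3 of 8 higher at an unadjusted p below 0.05.

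C6, a component of the complement membrane attack complex, was at 203, 597, 184 and 544 in saline and at 29.0, 19.97, 65.2 and 28.4 in MABsallo-VEGF, a log2 difference of -3.32 (SE 0.49, adjusted p = 0.0549). Cyp4b1, a cytochrome P450 of xenobiotic and fatty acid metabolism, was at 822, 732, 911 and 833 against 352, 203, 317 and 170, a log2 difference of -1.72 (SE 0.25, adjusted p = 0.0549). No MABsallo-VEGF sample of either gene reached the saline minimum. Further lower genes of the rule, which missed the adjusted threshold, were Prg4 (-2.40, SE 0.43), the gene of the joint lubricant lubricin, Ces1d (-2.46, SE 0.45), a carboxylesterase with lipase activity, Ntsr1, a neurotensin receptor (at least 3.43-fold lower), and Hapln4, a hyaluronan link protein (at least 13.7-fold lower). Hapln4 was at 0 in all MABsallo-VEGF samples and at 3.38 in saline replicate 1.

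The listed VEGF and angiopoietin ligands, with the angiopoietin-like Angptl4 among them, did not share a direction. Vegfd, which acts on lymphatic vessels, was at 734, 697, 596 and 544 in saline and 225, 320, 174 and 217.5 in MABsallo-VEGF, a log2 difference of -1.48 (SE 0.22, adjusted p = 0.0585), with no overlap. Angptl4, an inhibitor of lipoprotein lipase that adipocytes also make, was at 802, 1382, 3071 and 1135 against 330, 99.8, 434.5 and 50.4, a log2 difference of -3.09 (SE 0.63, adjusted p = 0.173). Angpt4 was at the detection limit in MABsallo-VEGF, at least 5.09-fold lower in mean than in saline, and its groups overlapped. Pgf, placental growth factor, was higher (1.12, SE 0.36, adjusted p = 0.259) with overlap. Without MABsallo-VEGF replicate 11, Vegfd (-1.35, adjusted p = 0.0307) and Angptl4 (-3.55, adjusted p = 0.0368) were called by limma (all genes 0.243% lower).

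Among the receptors, Kdr, which encodes VEGFR2, was at 582, 463, 656 and 252 in saline and 976, 790, 698 and 716 in MABsallo-VEGF, a log2 difference of 0.78 (SE 0.28, adjusted p = 0.311). The groups did not overlap, but saline replicate 3 came close to MABsallo-VEGF replicate 11. Nrp1, a VEGF co-receptor, was at 0.89 (SE 0.31, adjusted p = 0.301). Of the 9 ligands 3 were lower and 1 higher at an unadjusted p below 0.05 (all genes 6.03% and 6.68%), and of the 7 receptors 2 were higher and 0 lower. The lower ligands were Vegfd, Angptl4 and Angpt4, of which only Vegfd belongs to the VEGF family. The 16 endothelial genes tested had a median of 0.31, with 13 higher and 3 lower but only 2 at an unadjusted p below 0.05, and with the recovery samples alone the median was 0.65. Sox17, an arterial endothelial transcription factor, was at 0.67 (SE 0.24, adjusted p = 0.308). Their summed level of 9949 to 15040 in saline overlapped that of MABsallo-VEGF, 13670 to 19940.

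**Figure D3:**
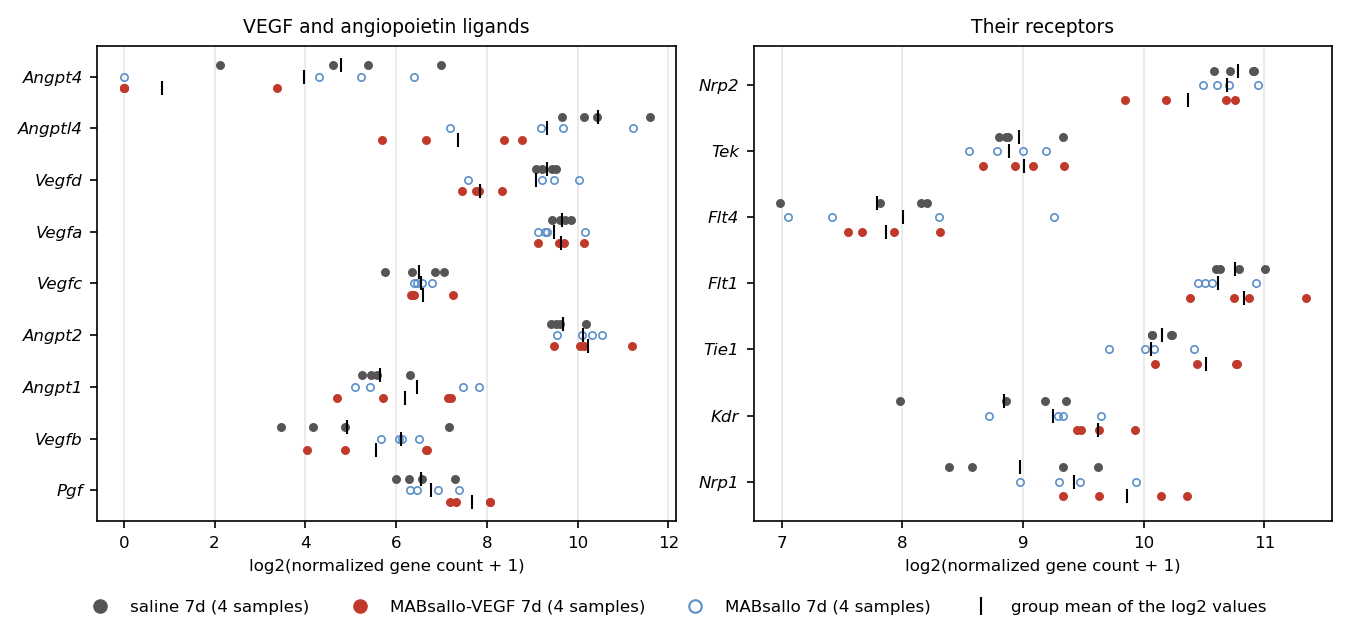
Levels as log2(normalized gene count + 1) of 9 VEGF and angiopoietin ligands and 7 receptors, with a point for each sample of saline, MABsallo and MABsallo-VEGF at 7d and a bar at each group mean. Vegfa overlaps between the groups (562 to 1121 normalized counts in MABsallo-VEGF, 687 to 930 in saline), while Vegfd is lower in all 4 MABsallo-VEGF samples (174 to 320 against 544 to 734).

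The genes higher after MABsallo-VEGF were led by A2ml1 and Atp2a3. A2ml1, a secreted protease inhibitor of stratified epithelia, was at 189, 72.2, 281 and 409 in saline and at 2717, 2222, 1862 and 1324 in MABsallo-VEGF, 8.54-fold higher in mean, with a log2 difference of 3.29 (SE 0.45, adjusted p = 0.0549). Its MABsallo values ran from 8.30 to 1152, all below those of MABsallo-VEGF. Atp2a3, a calcium pump of the endoplasmic reticulum found in epithelia, endothelium and blood cells, was at 497, 505, 291 and 305 against 1168, 1751, 984 and 1217, a log2 difference of 1.69 (SE 0.25, adjusted p = 0.0549). The next was Cgnl1, a protein of cell junctions (1.21, SE 0.21, adjusted p = 0.158).

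Sgk1, a kinase that raises sodium transport and is induced by mineralocorticoids and glucocorticoids, was at 4827, 2029, 4213 and 3808 in saline and 12070, 12700, 6250 and 10960 in MABsallo-VEGF, a log2 difference of 1.51 (SE 0.29, adjusted p = 0.165). Kcne1, a potassium channel subunit, was at 3.38 to 25.2 against 59.9 to 247, a log2 difference of 3.52 (SE 0.63, adjusted p = 0.165). Sik1, a salt-inducible kinase, was at 1.29 (SE 0.25) and Gprc5a, a receptor induced by retinoic acid, at 2.40 (SE 0.48), with saline replicate 1 of Gprc5a at 1481, near the MABsallo-VEGF minimum of 1836.

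The remaining genes of the rule were Top1, which relaxes DNA supercoils (1.34, SE 0.24), Lypd2 (1.86, SE 0.35), Gkn3, a gastrokine (2.58, SE 0.51), Cwh43 (2.23, SE 0.45) and LOC691352, at least 10.6-fold higher. Their adjusted p was 0.165 in limma. In all 8 fits that left out 1 sample, and in the fits with only the recovery samples or only the others, the 24 genes named by rule kept their direction. DESeq2 on the 8 samples called all 24, 22 with ashr, and DESeq2 on all 24 samples called 6, while edgeR called 0. limma called 15 without saline replicate 1, 16 without MABsallo-VEGF replicate 11 and 0 with all 8 samples. These genes were chosen on this comparison, and their direction is therefore fixed by the choice.

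**Figure D4:**
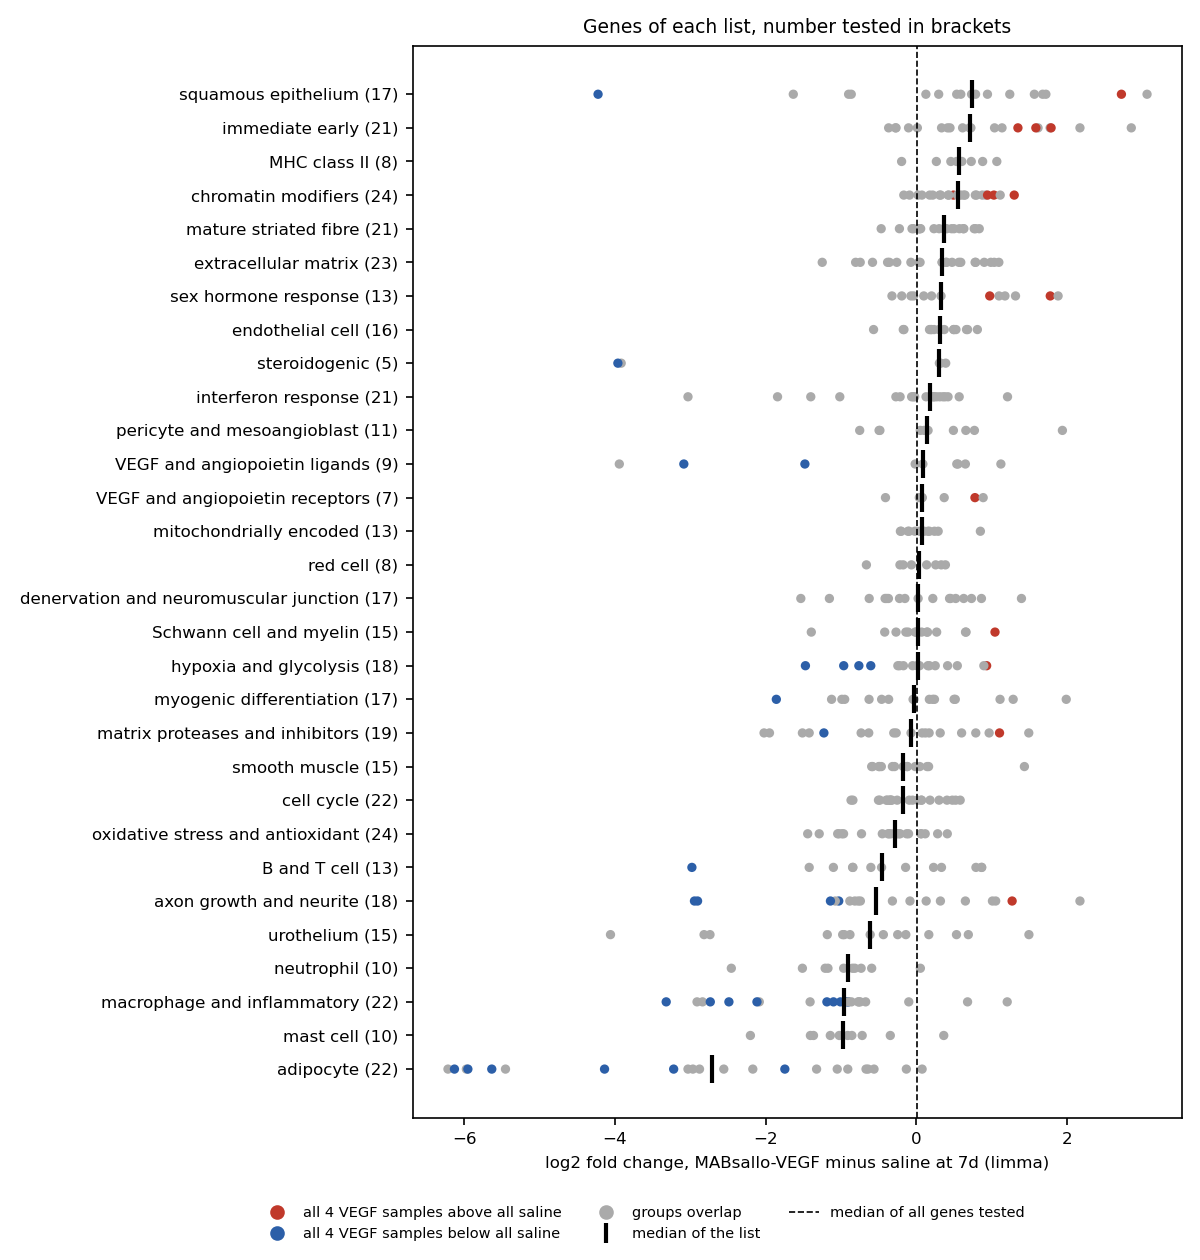
Log2 fold changes of MABsallo-VEGF minus saline at 7d (limma) of the genes of each list, 1 point per gene, coloured where the groups do not overlap, with a bar at the median of the list and a dashed line at the median of all genes tested (0.01). Of the lists drawn, the adipocyte list has the lowest median (-2.72) and the squamous (0.73) and immediate early (0.71) lists the highest. Lists not drawn include the genes named in the study text and small noncoding RNAs.

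Immediate early genes, which are induced within minutes of stimulation, were mostly higher after MABsallo-VEGF. Jund, an AP-1 subunit whose promoter is shown above, was at 9782, 3482, 7241 and 3478 in saline replicates 1, 2, 3 and 5 and at 11750, 17430, 15400 and 11390 in MABsallo-VEGF replicates 6, 7, 11 and 12, a log2 difference of 1.35 (SE 0.32, adjusted p = 0.186). The groups did not overlap, and saline replicate 1 was the nearest to MABsallo-VEGF. Klf4, a transcription factor of epithelial barrier and stem cells, was at 1796, 1426, 1852 and 1160 against 9613, 4587, 2855 and 3546, a log2 difference of 1.59 (SE 0.33, adjusted p = 0.174). Nr4a3, a nuclear receptor, was at 1.79 (SE 0.38) without overlap, whereas Atf3 (2.17, SE 0.59) and Fosb (2.85, SE 0.88) overlapped. Atf3 was at 2182 in saline replicate 1 and 174 to 531 in the other saline samples. Without that replicate limma called Atf3 (2.81, adjusted p = 0.0204) and Jund (1.63, adjusted p = 0.0465), where 0.0987% of all genes were called higher. Without MABsallo-VEGF replicate 11 it called Klf4 (1.81, adjusted p = 0.04), where 0.454% of all genes were called higher.

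Of the 21 immediate early genes tested, 17 were higher and 4 lower, 7 were higher and 0 lower at an unadjusted p below 0.05 (all genes 6.68% and 6.03%), and 3 did not overlap, all higher (3.12%). DESeq2 called 4, all higher (all genes 0.737%), and the median was 0.71. Klf9, a glucocorticoid and thyroid hormone target that was looked at after its values were seen, was at 1.02 (SE 0.21, adjusted p = 0.165) without overlap. Against MABsallo the log2 difference of Klf9 was -0.003 (SE 0.425). Tsc22d3, another glucocorticoid target also looked at afterwards, overlapped (0.95, SE 0.32). So did Fkbp5, a further such target (0.72, SE 0.66, adjusted p = 0.6825 in limma).

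Chromatin modifiers were also mostly higher. Hdac1, a histone deacetylase, was at 379, 413, 358 and 302 in saline and 932, 916, 521 and 662 in MABsallo-VEGF, a log2 difference of 1.03 (SE 0.22, adjusted p = 0.180). The groups did not overlap. Tet2, which oxidises 5-methylcytosine, was at 196, 187, 184 and 119.5 against 591, 516, 248 and 394, a log2 difference of 1.30 (SE 0.30, adjusted p = 0.180), again without overlap. Kmt2a, a histone H3K4 methyltransferase, and Kdm5a, a demethylase of the same residue, were apart at 0.94 (SE 0.26) and 0.56 (SE 0.17). Dnmt3a, a DNA methyltransferase, and Kat6a, a histone acetyltransferase, overlapped, at 0.92 (SE 0.49) and 0.78 (SE 0.42).

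Of the 24 chromatin genes tested, 22 were higher and 2 lower, 8 were higher and 0 lower at an unadjusted p below 0.05 (all genes 6.68% and 6.03%), 5 did not overlap, all higher (all genes 3.12%), and DESeq2 called 2 higher (all genes 0.737%). The median was 0.55, and 0.63 for MABsallo against the same saline samples. Without MABsallo-VEGF replicate 11, limma called 3, all higher (all genes 0.454%): Hdac1 at 1.19, Tet2 at 1.54 and Chd7, a chromatin remodeller, at 1.16. Without saline replicate 1 it called 0 of the list (all genes 0.0987% higher and 0.296% lower). The list holds 6 modifiers that the study names from samples of 3d (Dnmt3a, Tet2, Hdac1, Kat6a, Ehmt1 and Kdm6a), and the others were added as further genes of DNA and histone modification.

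**Figure D5:**
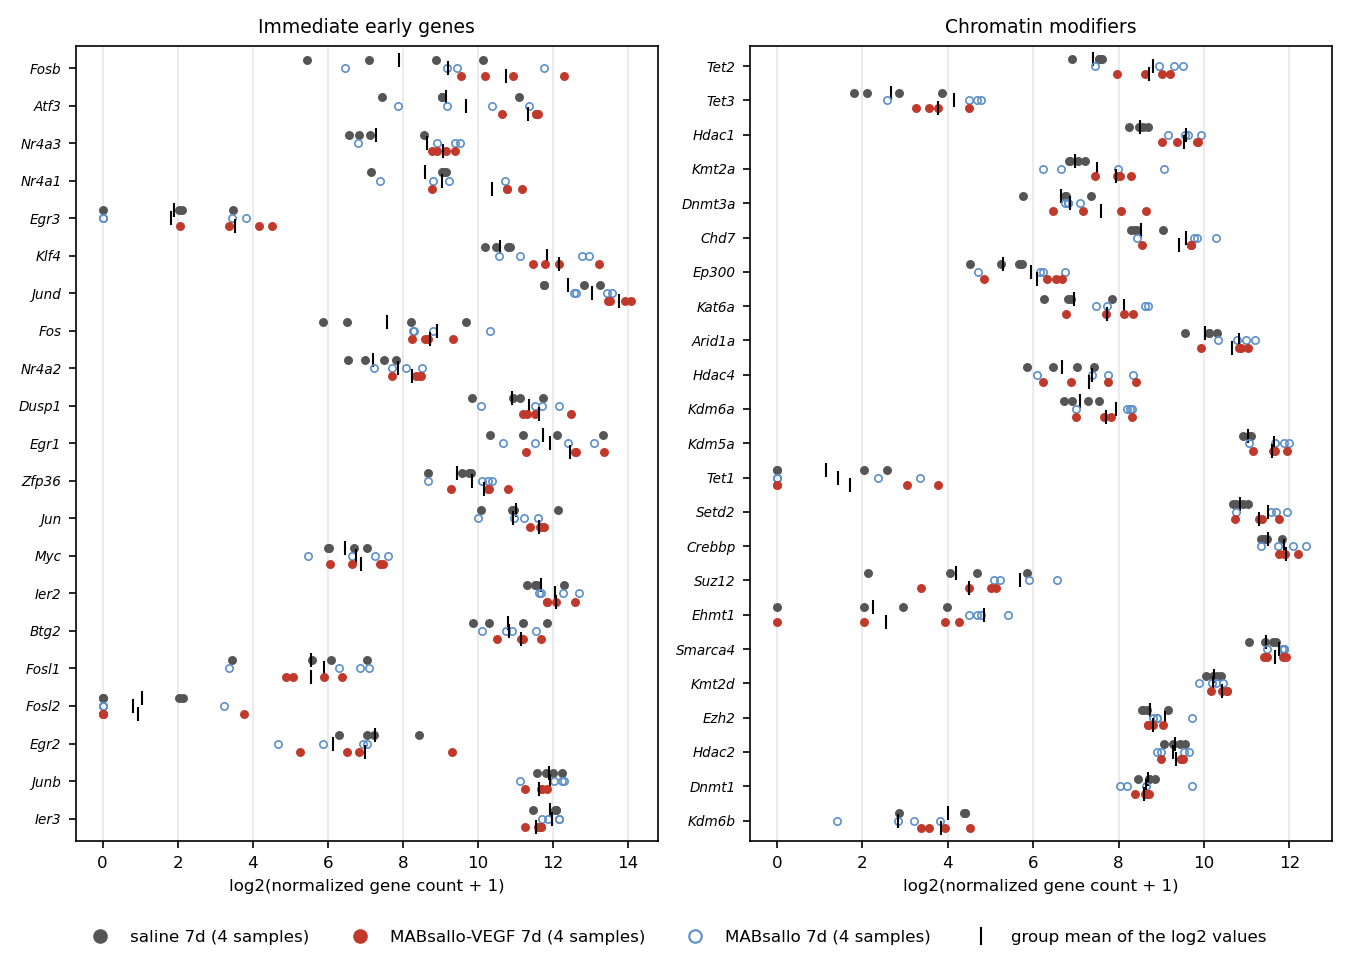
Levels as log2(normalized gene count + 1) of 21 immediate early genes and of chromatin modifiers, with a point for each sample of saline, MABsallo and MABsallo-VEGF at 7d and a bar at each group mean. Jund, Klf4, Nr4a3, Hdac1 and Tet2 show no overlap between saline and MABsallo-VEGF, and for Hdac1 the mean of MABsallo (774 normalized counts) lies beside that of MABsallo-VEGF (758).

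Rhov, a small GTPase of epithelial and neural crest development that the text of the study names, was at 1065, 841, 1490 and 682 in saline and 1741, 2636, 1865 and 2607 in MABsallo-VEGF, a log2 difference of 1.15 (SE 0.25, adjusted p = 0.180). The groups did not overlap, and its MABsallo values of 594 to 1363 lay with saline.

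Genes of axon growth did not share a direction. Gap43, a growth-cone protein of sprouting axons, was at 430, 204, 67.0 and 384 in saline and 424, 311, 450 and 233 in MABsallo-VEGF, a log2 difference of 0.65 (SE 0.51, adjusted p = 0.624). Its groups overlapped. The neurofilament genes Nefm and Nefl, at most 77.0 normalized counts in any of these samples, were lower without overlap, at -2.94 (SE 0.85) and -2.90 (SE 0.95), as were the neuronal tubulin Tubb3 (-1.14, SE 0.46) and Basp1, a membrane protein of growth cones (-1.03, SE 0.32). Stmn4, a neuronal tubulin-binding protein, was higher without overlap (1.27, SE 0.37, adjusted p = 0.223). Of the 18 genes, 3 were higher and 6 lower at an unadjusted p below 0.05 (all genes 6.68% and 6.03%), and the median was -0.53.

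Hypoxia and glycolysis genes also differed among themselves, with a median of 0.02 over 18 genes, 2 higher and 4 lower at an unadjusted p below 0.05 (all genes 6.68% and 6.03%). Eno1 and Pgk1, enzymes of glycolysis, were lower without overlap, at -0.76 (SE 0.18, adjusted p = 0.180) and -0.61 (SE 0.16, adjusted p = 0.201). Adm, the vasodilator adrenomedullin, and Bnip3, a mitophagy receptor, were lower at -0.96 (SE 0.25) and -1.47 (SE 0.48), and Ddit4, an inhibitor of mTORC1 that stress and glucocorticoids also induce, was higher at 0.93 (SE 0.41, adjusted p = 0.380). The remaining lists showed little. Medians were 0.34 for 23 extracellular matrix genes, -0.07 for 19 matrix proteases and inhibitors, -0.18 for 22 cell cycle genes, 0.17 for 21 interferon response genes, 0.14 for 11 pericyte and mesoangioblast genes, 0.02 for both 17 neuromuscular junction genes and 15 Schwann cell and myelin genes, 0.07 for 13 mitochondrially encoded genes and 0.03 for 8 red cell genes. At an unadjusted p below 0.05, no more than 3 members of any of these were higher and no more than 1 lower. The 63 small noncoding RNAs tested had a median of 0.51, or 0 at bounds. The antioxidant list had a median of -0.29, with 4 of 24 lower and 0 higher at an unadjusted p below 0.05.

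Muscle genes gave little difference with all 8 samples. The 21 genes of mature striated fibres had a median of 0.37, with 2 higher and 0 lower at an unadjusted p below 0.05 (all genes 6.68% and 6.03%). The 15 smooth muscle genes had a median of -0.17, with 0 in either direction. Without saline replicate 1, 7 striated fibre genes were higher and 0 lower (1104 and 1029 of all 15198 genes), with a median of 0.53. Without MABsallo-VEGF replicate 11 these were 2 and 0 (all genes 1390 and 1035), with a median of 0.23. Among 17 myogenic genes, with a median of -0.03, Tnnt2, the cardiac and embryonic troponin T, was at 873, 3734, 1457 and 3280 in saline and 457, 485, 729 and 555 in MABsallo-VEGF, a log2 difference of -1.86 (SE 0.40, adjusted p = 0.180). Myh8, the perinatal myosin heavy chain, was higher with overlap (1.28, SE 0.38). Without saline replicate 1 limma called Tnnt2 (-2.25, SE 0.32, adjusted p = 0.0204), where 0.296% of all genes were called lower. Without MABsallo-VEGF replicate 11 it called Myh8 (1.67, SE 0.29, adjusted p = 0.0376), where 0.454% of all genes were called higher. Neither gene was called in the other of these fits.

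Of the 44 genes tested that the text of the study names, 14 were lower and 3 higher without overlap (all genes 3.36% and 3.12%), 22 lower and 5 higher at an unadjusted p below 0.05 (6.03% and 6.68%), and DESeq2 called 14 lower and 3 higher (0.849% and 0.737%). Their median was -1.17, or -0.59 at bounds. The study chose some of them from the 7d samples and others from those of 3d, so that the count is not independent evidence of a direction. S100a5, a calcium-binding protein, was at 50.7 to 279 in saline against 7.26 to 25.2 (-3.10, SE 0.59, adjusted p = 0.165). Fer1l4, at 30.4 to 1058 against 3.63 to 28.4, had a log2 difference of -4.66 (SE 0.99, adjusted p = 0.180). Slc1a3, a glutamate transporter, was at -2.11 (SE 0.49), and Cyp11a1, the first enzyme of steroid synthesis, was at least 8.09-fold lower. It was 1 of 2 lower among 5 steroidogenic genes at an unadjusted p below 0.05. Without saline replicate 1, limma called S100a5 (-3.61, adjusted p = 0.0204), Fer1l4 (-5.77, adjusted p = 0.00859) and Cyp11a1 (adjusted p = 0.0387). In that fit 9 of the 44 genes were called lower (all genes 0.296%). None of S100a5, Fer1l4 and Cyp11a1 was called without MABsallo-VEGF replicate 11.

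To ask whether MABsallo-VEGF also differed from MABs without the VEGF vector, it was compared with MABsallo at 7d in a fit of the 12 samples. limma called 0 genes, with 615 (4.05%) at an unadjusted p below 0.05, and edgeR called 0. MABsallo against the same saline samples also gave 0 DEGs and 1340 genes (8.82%) at an unadjusted p below 0.05. Both comparisons share the saline or the MABsallo-VEGF samples with the main one. The study itself reports differentially expressed genes between MABsallo-VEGF and MABsallo on this day, most of them lower. No DESeq2 result for that contrast is given here. Against saline, DESeq2 called 241 genes where limma and edgeR called 0. The counts of 0 against MABsallo thus do not show that both cell treatments were alike. Of the 24 genes named by rule, 18 had an unadjusted p below 0.05 against MABsallo, each in the direction it had against saline, and the lowest adjusted p was 0.687. These genes were chosen for extreme values in the same MABsallo-VEGF samples, so that this count and the shared direction are favoured by the choice. A2ml1, Atp2a3, Cgnl1 and Aqp7 did not overlap with MABsallo either. For Hdac1 (-0.05, SE 0.23) and Tet2 (-0.10, SE 0.41) both cell treatments were close in mean, and for Cd163 the difference was -1.46 (SE 0.49, adjusted p = 0.994). For Rhov, which the study names from this same contrast, it was 1.34 (SE 0.29, adjusted p = 0.687). The MABsallo samples varied widely in fat genes, with Lep at 130, 3.31, 28.4 and 1457.

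Whether the difference from saline at 7d differed from that at 3d was tested as an interaction over all 24 samples. limma called 0 genes, with 1238 (8.15%) at an unadjusted p below 0.05, and 13 of the 24 named genes were among these. The 24 genes were chosen on the difference at 7d, which is part of the interaction. Their count is therefore raised by the choice and does not show that they are particular to 7d. Cd163 was at -0.12 (SE 0.65) at 3d, and the difference between the days was -2.37 (SE 0.91, adjusted p = 0.560). Il1b was at 1.34 (SE 0.60) at 3d, with a difference between the days of -3.46 (SE 0.85, adjusted p = 0.501). Without saline replicate 6 and MABsallo-VEGF replicate 4 of 3d, which stand apart from their groups, limma called 393 of the 15198 genes. Of the 24 genes named by rule, Atp2a3 was the only one among them (2.44, SE 0.63, adjusted p = 0.0409). Leaving out samples that stand apart lowers the spread by choice. These calls are thus partly built in and do not show that Atp2a3 is particular to 7d.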

How the data were processed

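Urethral RNA of 24 rat samples was sequenced by the authors as QuantSeq 3ʹ libraries, and the 8 samples of saline and MABsallo-VEGF at 7d were compared, grouped by their labels. The authors aligned the reads to Rnor6.0 with HISAT2, counted them per gene with HTSeq and scaled samples with DESeq2 size factors. The values deposited are a signal, the normalized gene count. Per sample, 100% of the values equalled a whole number of reads (tolerance 1e-06), and the reads were thereby recovered. Replicates differed by more than counting error (chi-square per degree of freedom 29.5 to 84.4 over 12 pairs).

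The test was limma 3.58.1 on log2(normalized gene count + 1) (R 4.3.3, lmFit, eBayes with trend, two-sided, Benjamini-Hochberg) for genes with a mean of at least 2, and fold changes on this scale understate those of low genes. The comparison with MABsallo used 12 samples and the interaction with day 24. Alternatives were edgeR 4.0.16, DESeq2 1.42.0 with and without ashr 2.2.63, a pseudocount of 5, no filter or one at 10, quantile normalization, equal totals per sample, quality weights, thinned reads, fits of 12 and 24 samples, the samples with or without the recovery label and leaving out each sample. DESeq2 and edgeR on 24 samples and DESeq2 leaving out each sample were chosen after seeing the data. The scripts were tested on simulated data. A group with at most 3 reads in every sample was treated as at the detection limit, and folds against it are bounds that cover counting error only.

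The genes named by rule are the 12 largest differences in each direction among DEGs without overlap and with a mean of at least 20 in the higher group. Since 0 genes passed, the places went to the smallest unadjusted p among genes without overlap and with a log2 difference beyond 1, and all 24 miss the adjusted threshold. Lists of genes were described by counts and medians, without a set test, and the results of some genes and lists are not reported here. The members and lists were chosen with earlier results of these data known. Promoter sequences are those of RefSeq (GRCr8), matched by symbol for 18 of the 24 genes, and coordinates are of that build, not of the build of the counts. Repeated symbols (2867 genes) were kept apart by Ensembl identifier.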

Additional observations from a re-analysis of the deposited data

Results flagged for a closer look

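Of 164 groups of 4 values, 15 held a sample that lay far from the other 3 by the gap to the nearest divided by the range (Dixon). The cut-off flags about 1 in 20 groups where values are independent and normally distributed. These are untransformed counts, some of a few reads, of genes that were chosen. The 15 can therefore not be read against that rate. MABsallo-VEGF replicate 11 held 8 of them, and 5 of these were adipocyte genes. There Plin1 was at 217 normalized counts (3.15 to 10.9 in the other samples of the group), Retn at 229.6 (7.26 to 18.9), Adipoq at 419 (2.85 to 18.9), Cidec at 96.2 (2.85 to 3.63), Pck1 at 282 (3.63 to 18.9) and Cxcl1 at 922 (109 to 154.5). Angpt4 was at 9.31 and Krtdap at 3.10 in that replicate, with 0 in the other 3. The adipocyte sum of replicate 11, 32630, was the highest of its group, and its Schwann cell and myelin sum was 68920 against at most 22760 in the other samples of both groups. The part of these tissues in the values was not tested.

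In the other MABsallo-VEGF samples, Atf3 was at 1607 in replicate 6 (2982 to 3086 in the others), C1qc at 3642 in replicate 6 (1723 to 1927) and Eno1 at 744.5 in replicate 7 (645.5 to 657). In saline, replicate 1 had Gprc5a at 1481 (212 to 388.5). Replicate 3 had Cwh43 at 30.1 (14.9 to 16.9) and Nr4a3 at 375 (94.7 to 139), and replicate 5 had Tet2 at 119.5 (184 to 196).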

How the results depend on the processing

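The count of DEGs between MABsallo-VEGF and saline was 0 in limma and 241 in DESeq2, 95 with ashr and 36 in DESeq2 with all 24 samples. It was 7 with the same total per sample, 9 with sample quality weights and 7 with reads thinned to the lowest total. Leaving out 1 sample gave 0 to 106 in limma (0 without saline replicates 3 and 5 or MABsallo-VEGF replicates 6, 7 and 12, 1 without saline replicate 2) and 72 to 520 in DESeq2 (377, 92, 228 and 72 without saline replicates 1, 2, 3 and 5, and 124, 89, 520 and 198 without MABsallo-VEGF replicates 6, 7, 11 and 12). Against MABsallo, leaving out 1 sample gave 0 to 4, the 4 without MABsallo replicate 7.2. The interaction with day gave 393 without the 2 samples of 3d that stand apart. Vegfa changed sign, at 0.01 in edgeR and DESeq2, 0.00 with ashr, 0.07 with quality weights, 0.02 and 0.01 with DESeq2 and edgeR on 24 samples, and -0.18 to 0.15 leaving out 1 sample. Scaling to the same total moved the median of all genes to -0.07, with 675 higher and 1307 lower at an unadjusted p below 0.05. The axon median moved from -0.53 to -0.25 in DESeq2 and -0.27 without saline replicate 1. The cause was not tested. No paired analysis was possible because the groups share no replicate number (1, 2, 3 and 5 against 6, 7, 11 and 12). Depth limits genes of a few reads, such as Cd34 and Tnf.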

Other observations

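Epithelial genes differed by type. Krt1, a keratin of cornifying squamous epithelium, was at 2199, 473, 1403 and 255 normalized counts in saline replicates 1, 2, 3 and 5 and at 5242, 2593, 6188 and 8373 in MABsallo-VEGF replicates 6, 7, 11 and 12, a log2 difference of 2.72 (SE 0.60, adjusted p = 0.180). Its groups did not overlap. It was called by limma without saline replicate 1 (3.22, adjusted p = 0.0387, all genes 0.0987% higher) but not without MABsallo-VEGF replicate 11. Krtdap, which is expressed in differentiating keratinocytes, was at least 6.23-fold lower. Upk2, a uroplakin of the urothelial surface, was at 284, 11370, 2783 and 8166 in saline and at 192, 334, 96.2 and 151 in MABsallo-VEGF (-4.06, SE 0.93, adjusted p = 0.180). Saline replicate 1 lay among the MABsallo-VEGF samples, and without it limma called the difference (-5.18, SE 0.50, adjusted p = 0.00368, all genes 0.296% lower). Upk2 was not called without MABsallo-VEGF replicate 11. Of 17 squamous genes 6 were higher and 3 lower at an unadjusted p below 0.05 (all genes 6.68% and 6.03%, median 0.73), and of 15 urothelial genes 0 and 3 (median -0.61, or -0.25 at bounds). How much of each epithelium a sample held was not tested.

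Igfbp5, an IGF-binding protein, was higher without overlap (0.97, SE 0.27, adjusted p = 0.205). Of the metalloprotease inhibitors, Timp3 was higher (1.10, SE 0.27) and Timp1 lower (-1.23, SE 0.33), both without overlap, and RT1-Da, an MHC class II chain, was higher with overlap (1.07, SE 0.32).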
